A study of Homo sapiens with 21 samples.

Results

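The integrated stress response regulators described here are 10 genes picked by name: *ATF4*, *ATF3*, *DDIT3*, *CEBPB*, *CEBPG*, *TRIB3*, *CHAC1*, *DDIT4*, *SESN2* and *PPP1R15A*. All 10 are among the 23368 features of the mRNA count table, and all 10 are among the 12855 that held enough counts to be tested. The cells were HK-2, immortalised epithelial cells from a human proximal kidney tubule, grown with epidermal growth factor and bovine pituitary extract. The labels name no genetic difference between the groups. The cells received cyclosporine A, an immunosuppressant that blocks calcineurin and can injure the kidney, at 5 µg/mL (CsA), or 0.1% ethanol vehicle (Veh). Polyadenylated RNA was sequenced after 48 h in 4 libraries per treatment. MicroRNAs (miRNAs) were sequenced in separate libraries, also after 48 h and 4 per treatment. RNA bound to Argonaute proteins was recovered by PAR-CLIP, a crosslinking method that marks the bound stretch, after 24 h of either treatment for AGO2, and in 1 library with an antibody to all Argonaute proteins whose treatment the labels do not give. All libraries come from 1 cell line. Because the labels name no separate cultures, a p-value here covers the library-to-library spread alone, and that spread may be technical.

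The integrated stress response starts when a kinase phosphorylates the translation factor eIF2 on its alpha subunit. PERK (*EIF2AK3*) does this when proteins misfold in the endoplasmic reticulum, GCN2 (*EIF2AK4*) when amino acids run short, PKR (*EIF2AK2*) on double-stranded RNA and HRI (*EIF2AK1*) on heme shortage or mitochondrial stress. General protein synthesis drops, while a few mRNAs with short upstream reading frames, among them that of the transcription factor ATF4, are translated more. ATF4 can then switch on regulators such as those described here. Whether ATF4 drove the changes reported below was not tested. Part of the pathway acts on protein output, which mRNA counts do not show.

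Total counts were 3965431 to 7041604 per mRNA library. Levels are given as CPM, the count scaled to a common library size, and they are not divided by gene length, so levels of different genes are not compared. Of 15 markers of proximal tubule and kidney epithelium 6 passed the filter on low counts (*GGT1*, *MME*, *SLC5A2*, *PAX8*, *KRT8* and *KRT18*), whereas the endocytic receptors *LRP2* and *CUBN* had at most 1 and 6 counts in any library and the transporter *SLC22A6* had none. Of 19 markers of other kidney, vessel, stroma and blood cells 4 passed, and 9 had no count in any library, among them *UMOD*, *PECAM1* and *PTPRC*. The summed level of those 19 was 274 to 312 CPM with vehicle and 67.9 to 76.9 CPM with cyclosporine A, most of it from *LUM* (264 ± 19.2 and 63.1 ± 3.46 CPM, mean ± SD, n = 4). The part of this difference in the results that follow was not tested.

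All 10 regulators were higher after cyclosporine A in edgeR's quasi-likelihood test, where a call is a Benjamini-Hochberg adjusted p under 0.05 over all 12855 genes. The background is high, since 33.3% of all tested genes were called higher and 33.5% lower. In 9 of the 10, every cyclosporine A library lay above every vehicle library, against 29% of all tested genes; *ATF3* was the exception. In 4 of the 10 (*PPP1R15A*, *DDIT3*, *CEBPB* and *TRIB3*) the level at least doubled, a log2 fold change of 1 or more, against 4.41% of all tested genes. The median log2 fold change of the 10 was 0.86, and that of all tested genes was -0.0022. The 10 genes were chosen with earlier results of these data known, so these shares and their direction are not independent evidence. In these bulk libraries a larger share of responding cells and more mRNA per cell cannot be told apart.

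**Figure D1:**
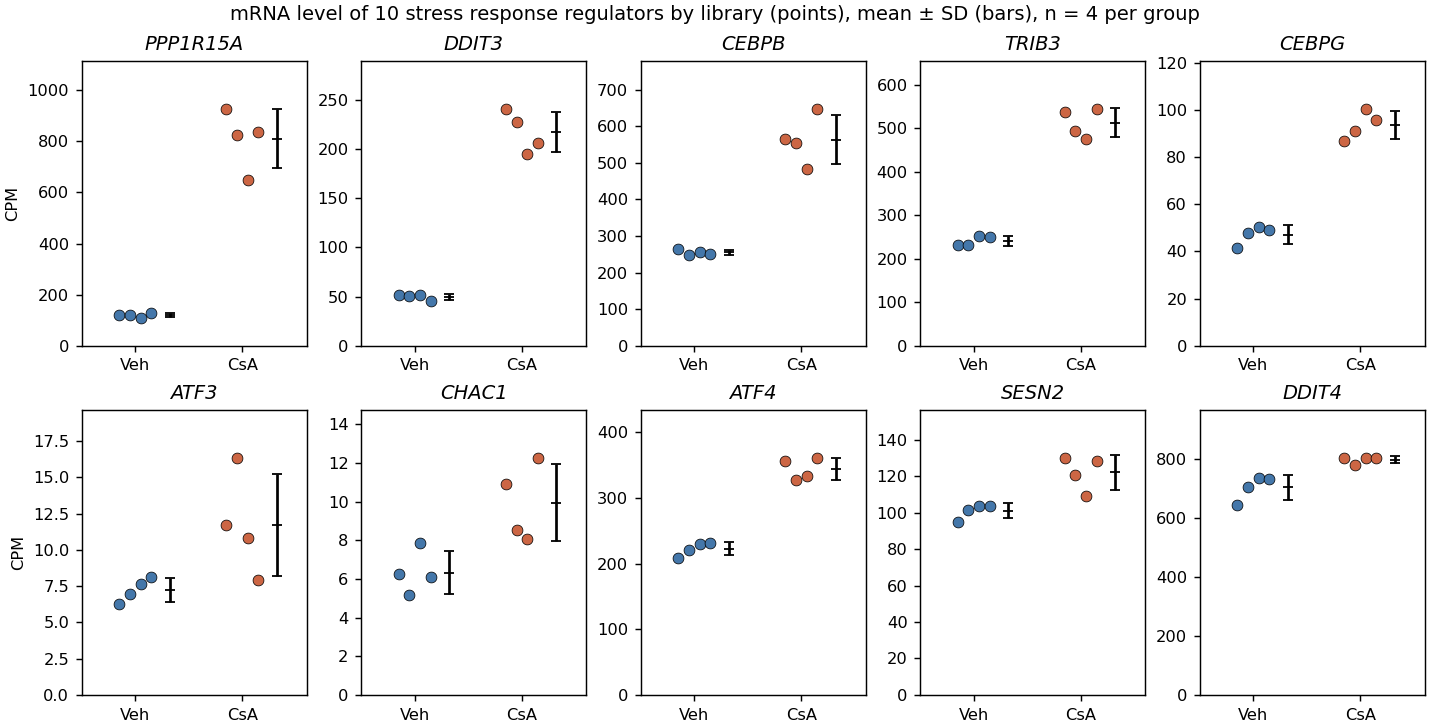
Level of each regulator in CPM (vertical axis, starting at 0) in the 4 vehicle (Veh, blue) and 4 cyclosporine A (CsA, orange) libraries, with mean ± SD beside the points and genes ordered by fold change. The groups are far apart for *PPP1R15A* and *DDIT3*, close together for *SESN2* and *DDIT4*, and overlap for *ATF3*.

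*ATF4*, the transcription factor at the centre of the response, moved moderately. Its level was 209, 221, 229.7 and 231 CPM in vehicle replicates 1 to 4 and 356, 328, 333 and 361 CPM in cyclosporine A replicates 1 to 4. The lowest treated library was thus well above the highest vehicle library. The log2 fold change was 0.63 ± 0.06 (SE), a ratio of 1.55, with an edgeR adjusted p of 2.54e-14. RefSeq lists 4 pseudogenes of *ATF4* under the names *ATF4P1* to *ATF4P4*, so its reads may have been split by the counting.

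*PPP1R15A* and *DDIT3* had the largest changes of the 10. *PPP1R15A* encodes GADD34, the subunit that brings protein phosphatase 1 to eIF2 alpha and so ends the translation block. It had 121, 120.2, 109 and 128 CPM with vehicle and 928, 825, 651 and 835 CPM with cyclosporine A. The treated libraries spread more widely, with replicate 3 the lowest, but none came near the vehicle range. Its log2 fold change of 2.76 ± 0.07 (6.77 times, edgeR adjusted p 1.17e-38) ranked 25 of 12855.

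*DDIT3* encodes CHOP, a C/EBP-type factor that pairs with other C/EBP proteins and is tied to cell death under lasting stress. It had 52.1, 50.6, 51.9 and 45.6 CPM with vehicle and 241, 227, 195 and 206 CPM with cyclosporine A, again with no overlap. The log2 fold change was 2.11 ± 0.07 (4.33 times, edgeR adjusted p 1.56e-33), rank 43 of 12855. In RefSeq the span of *DDIT3* overlaps *MARS1*, a tRNA synthetase gene; the latter, named *MARS* in the count table, rose by 0.64 ± 0.06 (edgeR adjusted p 1.52e-14). The sources used here do not state whether counting used the strand, and reads from the overlap cannot be told apart.

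The other leucine zipper factors, *CEBPB*, *CEBPG* and *ATF3*, rose less. *CEBPB*, which drives inflammatory and stress genes and also pairs with ATF4, had 265, 249, 256 and 251 CPM with vehicle and 565, 555, 484 and 648 CPM with cyclosporine A. The vehicle libraries were nearly level, and the treated ones spread more but stayed above them, for a log2 fold change of 1.14 ± 0.06 (edgeR adjusted p 2.62e-23). An antisense gene, *CEBPB-AS1*, overlaps it in RefSeq, and its reads cannot be told apart either. *CEBPG*, a short C/EBP protein that lacks an activation domain and works as a partner of ATF4, had 41.6, 47.7, 50.2 and 49.2 CPM with vehicle and 86.6, 91.1, 100.5 and 95.6 CPM with cyclosporine A. Its level about doubled without overlap (log2 fold change 1.00 ± 0.08, edgeR adjusted p 1.47e-17).

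*ATF3*, a stress-induced factor that often acts as a repressor, was scarce. It had 44, 38, 36 and 36 counts in vehicle replicates 1 to 4 and 57, 67, 47 and 31 counts in cyclosporine A replicates 1 to 4. In CPM this was 6.24, 6.99, 7.62 and 8.13 with vehicle and 11.7, 16.4, 10.8 and 7.93 with cyclosporine A. Replicate 4 of the treated group lay inside the vehicle range. The gene passed the test with a log2 fold change of 0.71 ± 0.17 (edgeR adjusted p 3.00e-04), which was 0.53 without cyclosporine A replicate 2, its highest library, and 0.85 without replicate 4.

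*TRIB3* and *CHAC1* are targets of ATF4 and CHOP that act later. *TRIB3*, a pseudokinase that holds back AKT and dampens ATF4 and CHOP activity, had 233, 232, 253 and 249 CPM with vehicle and 538, 495, 475 and 546 CPM with cyclosporine A. The groups were far apart relative to their spread, with a log2 fold change of 1.09 ± 0.06 (edgeR adjusted p 1.03e-23). *CHAC1*, which encodes an enzyme that breaks down glutathione, had 44, 28, 37 and 27 counts with vehicle and 53, 35, 35 and 48 counts with cyclosporine A. In CPM these were 6.24, 5.15, 7.83 and 6.10 against 10.9, 8.55, 8.05 and 12.3. The groups just failed to touch, between 7.83 and 8.05 CPM, and the log2 fold change of 0.66 ± 0.18 (edgeR adjusted p 0.00107) has a wide error.

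The regulators that slow the growth kinase mTORC1 changed least. *DDIT4* encodes REDD1, which acts through the TSC complex. It had 643, 705, 736 and 735 CPM with vehicle and 804, 782, 803 and 806 CPM with cyclosporine A. Vehicle replicate 1 was the low library, and the gap between the groups was smaller than the vehicle range. Its log2 fold change was 0.18 ± 0.06 (edgeR adjusted p 0.00399), a rise of 13.4%, and 63.1% of all tested genes had a smaller value. With upper-quartile scaling of the libraries the change was 0.10 and did not pass (edgeR adjusted p 0.104).

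*SESN2* encodes a sestrin, a leucine sensor that restrains mTORC1 through the GATOR complexes. It had 95.1, 102, 104 and 104 CPM with vehicle and 130.2, 121, 109 and 128 CPM with cyclosporine A. Cyclosporine A replicate 3 was near the vehicle libraries and the other treated libraries were clearly above them. The log2 fold change was 0.28 ± 0.07 (edgeR adjusted p 2.16e-04), a rise of 21.2%. In the authors' deposited table the log2 fold changes of the 10 genes ranged from 0.19 for *DDIT4* to 2.73 for *PPP1R15A*, and none differed from the values given here by more than 0.0353.

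To compare the regulators with one another without any scaling between libraries, the count of each was divided by the *ATF4* count of the same library. This comparison was added after the values above were known. It covers 9 ratios, and each was tested with a two-sided exact permutation test over the 8 libraries, whose smallest possible p is 0.0286. The *PPP1R15A* ratio was 0.538 ± 0.0435 with vehicle and 2.35 ± 0.291 with cyclosporine A (SD, n = 4, exact p = 0.0286), and the *DDIT3* ratio 0.225 ± 0.0212 and 0.631 ± 0.0626 (SD, n = 4, exact p = 0.0286). These genes therefore rose more than *ATF4*, as did *CEBPB* (log2 change of the ratio 0.50 ± 0.08), *TRIB3* (0.46 ± 0.03) and *CEBPG* (0.36 ± 0.07), each with no overlap and an exact p of 0.0286. *DDIT4* (-0.45 ± 0.03) and *SESN2* (-0.36 ± 0.04) rose less than *ATF4*, with the same exact p. The 7 ratios at that p had a Benjamini-Hochberg adjusted exact p of 0.0367 over the 9. The ratios of *ATF3* (0.021 ± 0.25, exact p = 0.886) and *CHAC1* (0.016 ± 0.16, exact p = 0.857) overlapped between the groups, at errors too wide to show that they moved alike.

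**Figure D2:**
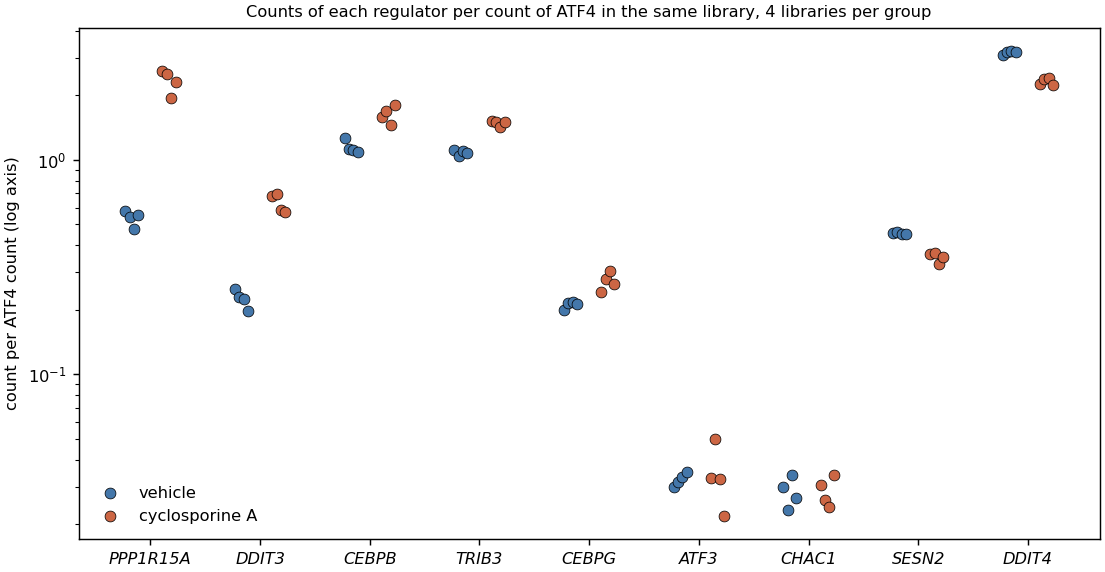
Count of each regulator per *ATF4* count in the same library (log axis), 4 vehicle (blue) and 4 cyclosporine A (orange) libraries. *PPP1R15A*, *DDIT3*, *CEBPB*, *TRIB3* and *CEBPG* sit higher with cyclosporine A, *SESN2* and *DDIT4* sit lower, and *ATF3* and *CHAC1* overlap; heights of different genes are not comparable because counts are not divided by length.

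The promoters of all 10 genes were found in RefSeq (GRCh38.p14; 17 stretches for the 10 genes, each from 250 bases before to 50 bases after an annotated start) and searched on both strands for letters that ATF4 and its partners are known to bind. The C/EBP-ATF composite site, through which ATF4 paired with a C/EBP protein acts, was searched as TGATGNAA. It was present in 3 of the 10 genes (*CHAC1*, *CEBPG* and *ATF3*), against 4.46% of 27305 genes with a promoter in the table. Genes with more starts have more chances to match. Counted by stretch, the composite site was in 3 of the 17, against 3.62% of 35116 promoters. With its middle base fixed, as TGATGCAA, it was present in *CHAC1* and *CEBPG*, against 1.08% of genes; these matches are part of the former. The cyclic AMP response element TGACGTCA was present in *PPP1R15A* alone of the 10, against 2.25% of genes. The C/EBP palindrome TTGCGCAA (0.172% of genes) and the endoplasmic reticulum stress element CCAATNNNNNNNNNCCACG (0.0916%) were in none of these windows. The matches are shown as a description of these windows, and each is a match of letters and not a measured binding site. Sites outside the windows or with other letters are missed. A relation between these letters and the size of change was not tested.

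The stretches below run 5′ to 3′ along the gene's strand, the plus strand in all 4 genes, with the match in capitals, and end before the annotated start. In *CHAC1* (chr15:40953226-40953305) the capitals are the reverse complement of TGATGCAA and lie 209 to 202 bases before the start. In *CEBPG* (chr19:33374035-33374112) they lie 42 to 35 bases before the downstream of its 2 starts. In *ATF3* (chr1:212565180-212565259) they lie 191 to 184 bases before the upstream of its 2 starts. In *PPP1R15A* (chr19:48872327-48872406) they lie 58 to 51 bases before the start.
CHAC1: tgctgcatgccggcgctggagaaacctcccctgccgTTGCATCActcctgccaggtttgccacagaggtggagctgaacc
CEBPG: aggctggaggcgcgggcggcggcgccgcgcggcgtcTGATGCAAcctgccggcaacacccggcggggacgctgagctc
ATF3: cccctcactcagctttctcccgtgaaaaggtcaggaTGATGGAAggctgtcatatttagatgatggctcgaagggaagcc
PPP1R15A: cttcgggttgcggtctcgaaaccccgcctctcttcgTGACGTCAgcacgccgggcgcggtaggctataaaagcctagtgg
The log2 fold changes of these 4 genes were 0.66 for *CHAC1*, 1.00 for *CEBPG*, 0.71 for *ATF3* and 2.76 for *PPP1R15A*. The other 6 genes, with none of the searched letters in these windows, changed by 0.18 (*DDIT4*) to 2.11 (*DDIT3*).

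In the C/EBP, tribbles and sestrin families some members rose and others fell. Of 12 relatives 8 were tested, with 3 called higher, 4 called lower and 1 not called, and their median log2 fold change was -0.46. These were 37.5% and 50% of the 8, against 33.3% and 33.5% of all tested genes, so both directions were common in general. *CEBPE* had no count, and *CHAC2*, *DDIT4L* and *SESN3* had at most 10, 6 and 1 counts in any library. Among C/EBP genes, *CEBPB*, *CEBPG* and *DDIT3* rose while *CEBPA*, a factor of differentiated cells, fell from 31.7 ± 1.33 to 19.3 ± 1.77 CPM (log2 fold change -0.71 ± 0.10, edgeR adjusted p 2.39e-08). *CEBPD*, an acute phase factor, fell from 289 ± 12.1 to 152 ± 17.2 CPM (-0.93 ± 0.06, edgeR adjusted p 2.67e-19), and no treated library reached the vehicle range for either gene.

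Among the tribbles pseudokinases, *TRIB3* rose, *TRIB1* rose slightly (0.30 ± 0.07, edgeR adjusted p 4.19e-04) and *TRIB2* fell. *TRIB2* had 39 to 71 counts in the vehicle libraries and 8 to 14 in the treated ones, a log2 fold change of -1.83 ± 0.21 (edgeR adjusted p 5.44e-11). The sestrins also moved apart: *SESN1*, known as a p53 target, fell from 8.04 ± 0.859 to 4.76 ± 0.855 CPM (-0.76 ± 0.20, edgeR adjusted p 5.72e-04) while *SESN2* rose.

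*PPP1R15B*, the constitutive partner of the eIF2 phosphatase, rose with *PPP1R15A* but less, from 247 ± 24.7 to 426 ± 13.5 CPM (0.78 ± 0.06, edgeR adjusted p 3.82e-17). *ATF5*, a close relative of ATF4 whose translation is also raised when eIF2 is phosphorylated, rose from 15.9 ± 2.33 to 26.6 ± 2.81 CPM (0.75 ± 0.12, edgeR adjusted p 1.33e-07). *JDP2*, a relative of ATF3, had 18.3 ± 0.765 and 15.9 ± 1.90 CPM and was not called (-0.21 ± 0.12, edgeR adjusted p 0.115); with upper-quartile scaling it was called lower (-0.29, adjusted p 0.0303).

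**Figure D3:**
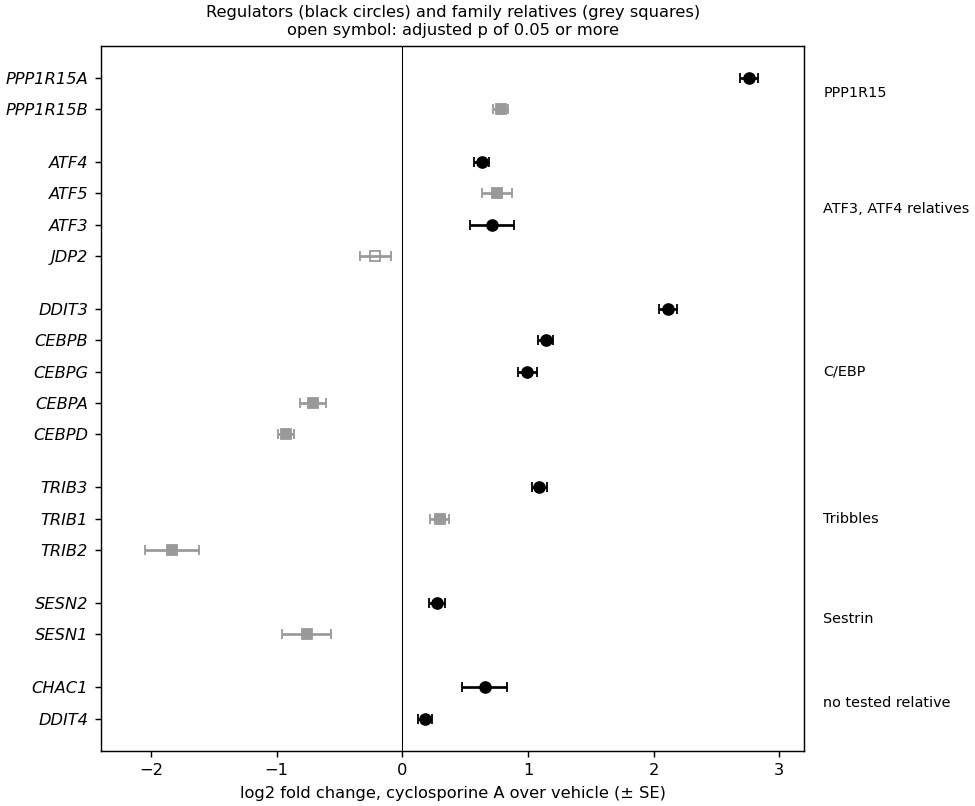
Log2 fold change of cyclosporine A over vehicle with its standard error (horizontal axis) for the 10 regulators (black circles) and their 8 tested relatives (grey squares), grouped by family; an open symbol did not pass the test. Within the C/EBP, tribbles and sestrin families, members lie on both sides of 0. Of all tested genes 33.3% were called higher and 33.5% lower.

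Upstream of the regulators, all 4 eIF2 kinases were called higher by small amounts on the log2 scale. *EIF2AK1* rose by 0.20 ± 0.06 (edgeR adjusted p 0.00346) and *EIF2AK2* by 0.28 ± 0.10 (edgeR adjusted p 0.00986). *EIF2AK3* rose by 0.35 ± 0.07 (edgeR adjusted p 6.64e-06) and *EIF2AK4* by 0.39 ± 0.08 (edgeR adjusted p 2.19e-05). These 4 calls were not checked singly under upper-quartile scaling, with which *DDIT4* did not pass. Of 11 kinases and kinase controls 8 were higher, 2 lower and 1 not called, with a median of 0.32. The shares were 72.7% higher and 18.2% lower, against 33.3% and 33.5% of all tested genes. *DNAJC3*, a chaperone of the endoplasmic reticulum described as an inhibitor of PERK, rose most (1.10 ± 0.08), and *GCN1L1* (0.32 ± 0.06), which GCN2 needs to sense amino acids, and the adaptor gene *NCK1* (0.51 ± 0.09) also rose. The genes that fell were *KIAA0141* (-0.57 ± 0.08), which encodes DELE1, the messenger of mitochondrial stress to HRI, and *OMA1* (-0.68 ± 0.16), the protease that cleaves it.

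The next list held 15 genes of eIF2, its exchange factor eIF2B, the phosphatase catalytic subunits and factors that restart translation. Of these, 9 were higher, 2 lower and 4 not called (median 0.24). That is 60% higher and 13.3% lower, against 33.3% and 33.5% of all tested genes. *EIF2S1*, the gene of the alpha subunit that the kinases phosphorylate, rose from 51.0 ± 2.61 to 84.7 ± 2.21 CPM (0.73 ± 0.07, edgeR adjusted p 2.58e-13). *EIF2A*, an initiation factor distinct from eIF2, rose by 0.88 ± 0.07. Among the catalytic subunits that GADD34 recruits, *PPP1CB* rose (0.52 ± 0.06) and *PPP1CA* fell (-0.26 ± 0.08). *MCTS1*, a reinitiation factor, also fell (-0.31 ± 0.09).

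Of 23 tested leucine zipper factors outside the 10 genes and their relatives, 16 were higher, 6 lower and 1 not called (median 0.45). Higher genes made up 69.6% and lower ones 26.1%, against 33.3% and 33.5% of all tested genes. *MAFF* rose from 24.6 ± 2.46 to 99.7 ± 13.6 CPM (2.03 ± 0.09, edgeR adjusted p 1.01e-27) and *MAFG* by 1.11 ± 0.06; both encode small MAF proteins that pair with NRF2. *FOSL1*, a FOS-type partner of JUN, rose by 1.00 ± 0.07. *HLF*, a circadian output factor (-0.96 ± 0.08), *MAF* (-0.51 ± 0.10) and *JUNB* (-0.40 ± 0.07) fell.

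Among effector genes described as targets of ATF4 or CHOP, 22 of 24 tested were higher and none was lower, with a median of 1.10. The 2 not called were *BCL2L11* (-0.15 ± 0.11) and *ATG5* (0.069 ± 0.12). Higher genes were 91.7% of this list, against 33.3% of all tested genes. Being described as a target does not exclude other regulators. Whether ATF4 or CHOP raised these genes was not tested. The list was drawn up with earlier results on such targets in these data known, so its direction is not independent evidence. *SQSTM1*, an autophagy receptor, went from 331 ± 5.86 to 1138 ± 25.7 CPM, *GDF15*, a secreted stress hormone, from 447 ± 14.5 to 1358 ± 144 CPM, and *HERPUD1*, which helps clear misfolded proteins, from 89.9 ± 4.49 to 242 ± 6.86 CPM.

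Of 24 tested genes of mTORC1 control, on which DDIT4 and SESN2 act, 13 were higher, 2 lower and 9 not called (median 0.18). The shares were 54.2% higher and 8.33% lower, against 33.3% and 33.5% of all tested genes. Among the Rag GTPases, which carry mTORC1 to the lysosome, *RRAGD* (1.56 ± 0.10), *RRAGC* (1.52 ± 0.12) and *RRAGA* (0.90 ± 0.07) rose and *RRAGB* fell (-0.52 ± 0.12). The other gene that fell was *GATSL3*, the gene of the arginine sensor CASTOR1 (-0.85 ± 0.17).

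The IRE1 and ATF6 arms of the unfolded protein response run beside PERK. Of 20 genes of these arms, 12 were higher, 4 lower and 4 not called (median 0.25). That is 60% higher and 20% lower, against 33.3% and 33.5% of all tested genes. *ERN1*, the gene of IRE1, rose from 14.4 ± 1.66 to 46.3 ± 4.44 CPM (1.66 ± 0.10, edgeR adjusted p 6.10e-21), and *HSPA5*, a chaperone, and *DNAJB9*, its cochaperone, by 1.47 ± 0.06 and 1.84 ± 0.08. *ATF6B* (-0.85 ± 0.06), *CREB3L1* (-0.84 ± 0.09) and *MBTPS1*, the protease that frees ATF6 (-0.42 ± 0.06), fell.

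**Figure D4:**
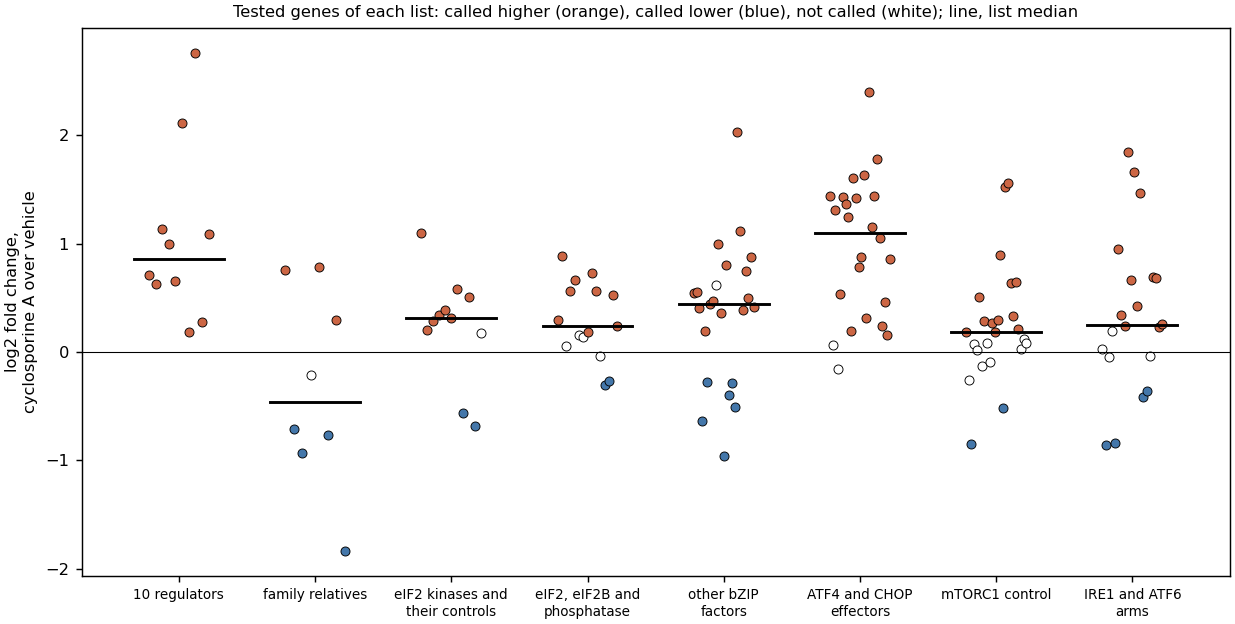
Log2 fold change of cyclosporine A over vehicle (vertical axis) of each tested gene in 8 lists, called higher (orange), called lower (blue) or not called (white), with the list median as a line. The medians of the 10 regulators (0.86) and of the ATF4 and CHOP effectors (1.10) are the highest. That of the family relatives is -0.46, and those of the other 5 lists lie between 0.18 and 0.45. The lists were chosen with earlier results of these data known.

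Within the treated group, the lowest library for 6 of the 10 genes was cyclosporine A replicate 3, among them *PPP1R15A*, *DDIT3*, *CEBPB* and *TRIB3*; *CEBPG* was highest there, and *ATF4*, *ATF3* and *DDIT4* were lowest in other libraries. Its mean deviation from the group over the 10 genes was -0.12 on the log2 scale, against 0.02 to 0.07 in the other treated libraries. Its total of 4426350 counts was within the range of its group. Without it the log2 fold change of *PPP1R15A* was 2.86. Among other genes of at least 20 CPM, the within-group deviations over the 8 libraries were most like the mean of the 10 in *HNRNPU* (Pearson r = 0.992), *GSN* (0.973), *SHKBP1* (0.972), *H3F3B* (0.965) and *TSFM* (0.960). They are the highest r values of all genes searched, over only 8 libraries, so values this high can come from the picking alone. The 8 points also share library depth and scaling. Of these 5 genes only *H3F3B* was itself called higher (0.49 ± 0.07). *HNRNPU* (-0.30 ± 0.06) and *GSN* (-0.35 ± 0.07) were called lower, and *SHKBP1* (0.028 ± 0.062) and *TSFM* (0.016 ± 0.11) were not called.

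Argonaute clusters are the stretches where the protein was crosslinked to RNA. Each AGO2 list pools both libraries of its treatment, and the lists are therefore described with no test. The vehicle list held 19 clusters assigned to 8 of the 10 genes, 0.0333% of its 56985, and the cyclosporine A list 5 clusters on 3 genes, 0.0136% of its 36812. The lists differ in length and in median score, so these counts and shares do not show a change in binding. Over all genes, 30244 vehicle clusters were assigned to 11869 genes and 19601 cyclosporine A clusters to 9355 genes. On the strand of the mRNA there were 17 clusters on 7 genes with vehicle and 3 on 2 genes with cyclosporine A. Of the 17, 6 were annotated to an exon, 5 to a 5′ UTR, 3 to a 3′ UTR, 2 to a promoter or start and 1 to an intron; the 3 with cyclosporine A were all annotated to an exon. *DDIT3* and *CEBPG* had none in any list.

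The 3′ UTR clusters are printed because microRNAs mostly act there. All are from the vehicle list, in hg19, and lie in *SESN2* (chr1:28608892-28608910, plus strand, the authors' score 19), *DDIT4* (chr10:74035201-74035217, plus strand, score 66) and *TRIB3* (chr20:377826-377845, plus strand, score 75); the score has no stated unit, and the median of the list was 44.
SESN2: gttcactgggtgggtaggg
DDIT4: tggatgtgtgtgtagca
TRIB3: aactcaggacccaagcccag
Seed matches, the reverse complement of miRNA bases 2 to 8, were searched in all 20 clusters on the mRNA strand of both AGO2 lists. The search used the 50 miRNAs with the highest mean CPM, of which 47 had a RefSeq sequence under the same name (31 distinct seeds). That mean pools the vehicle and cyclosporine A miRNA libraries at 48 h, while the AGO2 clusters are from 24 h. There was no match, which says only that these letters are not within the cluster borders, and so no miRNA level is reported here.

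At 2 places the AGO2 lists overlapped. The median score was 44 in the vehicle list, 78 in the cyclosporine A list and 45 in the all-Argonaute list. Scores are therefore not compared between lists. In an exon of *CEBPB* (hg19, plus strand) the vehicle cluster at chr20:48807575-48807597 (score 57) and the cyclosporine A cluster at chr20:48807584-48807606 (score 71) share 14 bases, in capitals.
CEBPB with vehicle: aacgcctggTGGCCTGGGACCCA
CEBPB with cyclosporine A: TGGCCTGGGACCCAgcatgtctc
The other place lies on the strand opposite to *CHAC1* and is annotated to its promoter, at chr15:41244902-41244920 with vehicle (score 204) and chr15:41244901-41244920 with cyclosporine A (score 142); a cluster of the all-Argonaute list (score 175) has the borders of the former. These were the highest scores of any cluster assigned to the 10 genes in each of the 3 lists, and the stretch does not belong to the *CHAC1* mRNA; the capitals are the bases shared by both AGO2 lists.
CHAC1 opposite strand, with vehicle: CGGGGAAGAGCCTGTTAGA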

How the data were processed

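The gene and miRNA tables are raw counts as the authors deposited them. The submitters' processing notes name hg19 and the tools Bowtie, TopHat, HTSeq, DESeq2, cutadapt and CASAVA 1.8.2. The settings were not given in the sources used here. Log2 fold changes and adjusted p-values are given in the authors' deposited comparison table. Per the file headers, the PAR-CLIP lists give a position, an annotation and a score per cluster; the caller is unstated. Starts in these lists were raised by 1, because sequence lengths equal end minus start.

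The whole table was fitted by the quasi-likelihood test of edgeR 4.0.16 (R 4.3.3), after filterByExpr and TMM, with group as the only term and Benjamini-Hochberg adjustment. The standard error is the one implied by the F statistic. Alternatives were DESeq2 1.42.0, no filter, upper-quartile scaling, a replicate block and leaving out each library. The fit was run on simulated data with 200 changed genes and the same dispersion for all genes. Far more genes were called in the real data, so that run does not check the fit under so wide a change. Within groups the lowest chi-square per degree of freedom of a library pair was 1.28. The members and lists were chosen with earlier results of these data known. Named genes are the 10 members, their relatives, up to 3 higher and 3 lower genes per list by p-value, and the 5 of most similar deviation; the eIF2 kinases, the genes not called in the effector list and *MARS* were named after their values were seen, as were markers.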

Additional observations from a re-analysis of the deposited data

Results flagged for a closer look

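In 8 of 110 gene and group combinations, 1 library stood apart from the other 3 by Dixon's test for 4 values; chance flags about 1 in 20. Among the 10 regulators this was *DDIT4* in cyclosporine A replicate 2, at 782 CPM against 803 to 806 CPM. Among the relatives it was *ATF5* in cyclosporine A replicate 1 (22.4 CPM against 27.8 to 28.3), *CEBPA* in vehicle replicate 4 (33.6 CPM against 30.9 to 31.1), *CEBPD* in cyclosporine A replicate 4 (178 CPM against 143 to 144), and *SESN1* in vehicle replicate 3 (9.32 CPM against 7.45 to 7.73) and in cyclosporine A replicate 1 (3.50 CPM against 5.06 to 5.37). In the lists it was *FOSL1* in vehicle replicate 4 (96.2 CPM against 82.7 to 83.2) and *RRAGC* in cyclosporine A replicate 2 (26.6 CPM against 30.4 to 30.7). Each of these values lay on the same side of the other group as the rest of its own group.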

How the results depend on the processing

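All 10 regulators kept their direction and their call in DESeq2, without a filter, with a replicate block and without each library in turn. With upper-quartile scaling 9 did, *DDIT4* not passing, and the median of all genes moved by -0.078. Of all calls, 42.5% were then higher, against 49.8% with TMM. The list counts given in the Results are those with TMM. With the replicate block 10 regulators were called, with no call of a regulator changed, while all genes called higher numbered 4243 and all genes called lower 4243. The replicate numbers share little: deviations of same-numbered libraries correlated by -0.08 to 0.03, and 1 of 4 vehicle libraries correlated best with its own number. Log2 fold changes over the 12 alternatives ranged from 0.53 to 0.85 for *ATF3*, 0.56 to 0.77 for *CHAC1*, 0.10 to 0.21 for *DDIT4*, 0.20 to 0.33 for *SESN2* and 2.68 to 2.86 for *PPP1R15A*; *ATF3* and *CHAC1* rest on 27 to 67 counts per library. With upper-quartile scaling the uncalled SHKBP1 log2 fold change turned to -0.051 and the uncalled TSFM log2 fold change to -0.062, and the latter ranged from -0.061 to 0.10 when 1 library was left out. Of the clusters on the 10 genes, those at or above their list's median score were 13 of 19 with vehicle, 2 of 5 (1 of 3 on the mRNA strand) with cyclosporine A and 1 of 3 in the all-Argonaute list. miRNA levels were fitted but are not reported, and DESeq2, the unfiltered fit, the block and left-out libraries were not run for them, because no seed match was found. The cause of these differences was not tested.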
